A study of Mus musculus with 24 samples.

Results

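SUMO inhibition was examined at day 3 of adipogenesis by comparing 3 libraries of 3T3-L1 cells kept in ML-792 with 3 libraries kept in DMSO, the solvent control. These 6 libraries were chosen by their titles alone, out of 24 in the series, and each was read as total reads (QuantSeq) and as labelled reads (SLAMseq). The groups are DMSO day 3 and ML-792 day 3, each with replicates A, B and C, and the study's methods describe 3 biological replicates. The other 18 libraries are DMSO and ML-792 at days -2, 1 and 7. Cells of both groups received the same induction medium with fetal bovine serum, dexamethasone, 3-isobutyl-1-methylxanthine and insulin, and the medium is changed at day 3 to one with insulin alone. ML-792 was present at 0.5 µM, and how long before collection it was first added is not stated for these libraries in the sources used here. RNA was labelled with 100 µM 4-thiouridine for 45 min. A read with at least 1 T-to-C conversion (a labelled read) is taken to come from RNA made in that time. The share of labelled reads with another origin was not measured here. Total reads count all polyadenylated RNA. 3T3-L1 is an established mouse fibroblast line that turns into adipocytes in culture, and it holds none of the blood vessels or immune cells of fat tissue.

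SUMO is a small protein that is joined to lysines of other proteins, most of them nuclear, by an activating enzyme (Sae1 with Uba2), a conjugating enzyme and a set of ligases, and is removed again by Senp proteases. ML-792 inhibits the activating enzyme, so that free SUMO can no longer be loaded. In transcription SUMO is mostly known as a mark of repression on factors, corepressors and chromatin. Adipogenesis of these cells passes from pre-adipocytes through a few rounds of division, called clonal expansion, to a stage at which Pparg and Cebpa, the transcription factors at the head of the adipocyte program, switch on genes of lipid storage.

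Summed over all 3′ UTR entries, the day 3 libraries held 14235696 to 17534786 total reads and 130767 to 190933 labelled reads, so labelled values rest on far fewer reads. Values below are normalized counts, that is counts divided by the library's effective size and brought to the mean effective library size of 18300638 reads, and every fold change is on the log2 scale with its standard error (SE). A gene was called when the Benjamini-Hochberg adjusted p of edgeR's quasi-likelihood test was under 0.1. Adipocyte markers were present in every day 3 library: Adipoq, the hormone adiponectin, ran from 15700 to 34100. Of 10 macrophage markers, 7 were at 0 in all 3 libraries of either group, and of 8 endothelial markers 4 were at 0 in each. The summed count of the macrophage list lay between 93.9 and 196 in DMSO and between 137 and 197 in ML-792, with Cd68 the highest. The libraries of letter B stood apart from A and C on both sides of the comparison, with a correlation of 0.60 between the deviations of the 2 B libraries from their group means. Counts without both B libraries are given for part of the results, and a count given alone may also depend on them. The differences between days were not computed without both B libraries.

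In total reads ML-792 moved about as many genes up as down. Among 13263 genes tested, 1120 were higher (8.44%) and 931 lower (7.02%) in ML-792 at day 3, and the median log2 fold change was 0.02. Of these, 700 higher and 410 lower genes changed by more than 1 on the log2 scale. With the replicate letter as a block the counts were 1665 and 1563, and without both B libraries they were 776 and 489. The libraries of the groups did not overlap in 1067 of the 1120 higher and 882 of the 931 lower genes, so a lack of overlap in a called gene adds little. These are bulk cultures, so a change in the share of cells at a given stage and a change of RNA per cell cannot be told apart.

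The strongest rises were of genes that were almost silent in DMSO. Cyp4b1, a cytochrome P450 that hydroxylates fatty acids, had no read in any DMSO library at day 3 and 121, 137 and 136 normalized counts in the ML-792 libraries, at least 115-fold higher against a floor of 3 counts over the group (adjusted p = 1.8e-08). Extl1, a glycosyltransferase of heparan sulfate synthesis, stood at 1.09, 0 and 2.31 in DMSO and 279, 260 and 224 in ML-792, a ratio of 225 with a 95% counting interval from 76.6 to 1090. Both were all but off in the control and well counted under the inhibitor. Tnfrsf23 and Tnfrsf22, neighbouring decoy receptors for the death ligand TRAIL that are close copies of each other, rose from a low to a high level. Tnfrsf23 read 76.6, 92.7 and 77.5 in DMSO against 6780, 4360 and 7660 in ML-792 (log2 fold change 6.25 ± 0.37, adjusted p = 7.9e-11). Tnfrsf22 read 98.5, 62.6 and 78.7 against 5900, 3870 and 7260 (6.15 ± 0.45, adjusted p = 3.2e-09). How reads of such near-identical genes are divided between them is uncertain.

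Several of the other strong rises were of metabolic enzymes. Acot1, a cytosolic acyl-CoA thioesterase with close paralogs next to it, went from 4.38, 3.48 and 1.16 in DMSO to 130, 143 and 139 in ML-792 (log2 fold change 5.45 ± 0.44, adjusted p = 6.6e-09). Lep, the satiety hormone leptin, went from 13.1, 10.4 and 5.79 to 280, 323 and 420 (5.10 ± 0.42, adjusted p = 1.8e-08). In neither gene did the groups come near each other, and the rule that chose them requires groups that do not overlap. Fmo1, a flavin monooxygenase, rose from between 66 and 93 to between 1210 and 1740 (4.26 ± 0.33), and Alox8, a lipoxygenase, from between 15.3 and 30.1 to between 330 and 580 (4.30 ± 0.42). Pde11a, a phosphodiesterase of cyclic nucleotides, Krtdap, a keratinocyte protein, and Chrna2, a nicotinic receptor subunit, were also among the 12 strongest rises, at log2 fold changes of 4.28, 4.59 and 4.46. Chrna2 was the least even of them, at 197, 53.2 and 179 in the ML-792 libraries.

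The deepest fall was that of Pip, a secreted protein first known from breast and salivary secretions. Pip stood at 2690, 2730 and 2020 in DMSO and at 16.3, 31.7 and 40.2 in ML-792 (log2 fold change -6.41 ± 0.35, adjusted p = 1.4e-11). Ren1, the protease renin, fell from 1220, 788 and 1940 to 124, 58.3 and 134 (-3.64 ± 0.43, adjusted p = 3.6e-06), although its 2 B libraries were the lowest of their group on both sides. Thrsp, a protein of fat synthesis that follows thyroid hormone and carbohydrate, fell from 1350, 2180 and 1800 to 136, 158 and 149 (-3.59 ± 0.49, adjusted p = 3.2e-05). All 3 left a wide gap between the treatments, where the rule that chose them already requires that the groups do not overlap.

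Retn, the adipocyte hormone resistin, read 6180, 7060 and 7230 in DMSO and 1150, 946 and 852 in ML-792 (log2 fold change -2.79 ± 0.31, adjusted p = 1e-06). Its relative Retnla fell from between 2080 and 3850 to between 305 and 376 (-3.10 ± 0.28). Cth, the enzyme that makes cysteine from cystathionine, was among the tightest of the falls, at 720, 746 and 691 against 103, 111 and 113 (-2.72 ± 0.23, adjusted p = 1.2e-08). The secreted ribonucleases Ang4 and Ang5, again close copies of each other, fell by 3.76 and 3.52 on the log2 scale. Fam107a, Smim5, Tnfrsf1b, a receptor of tumour necrosis factor, and Rnf144b, a ubiquitin ligase, completed the 12 deepest falls with log2 fold changes between -3.48 and -2.84.

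**Figure D1:**
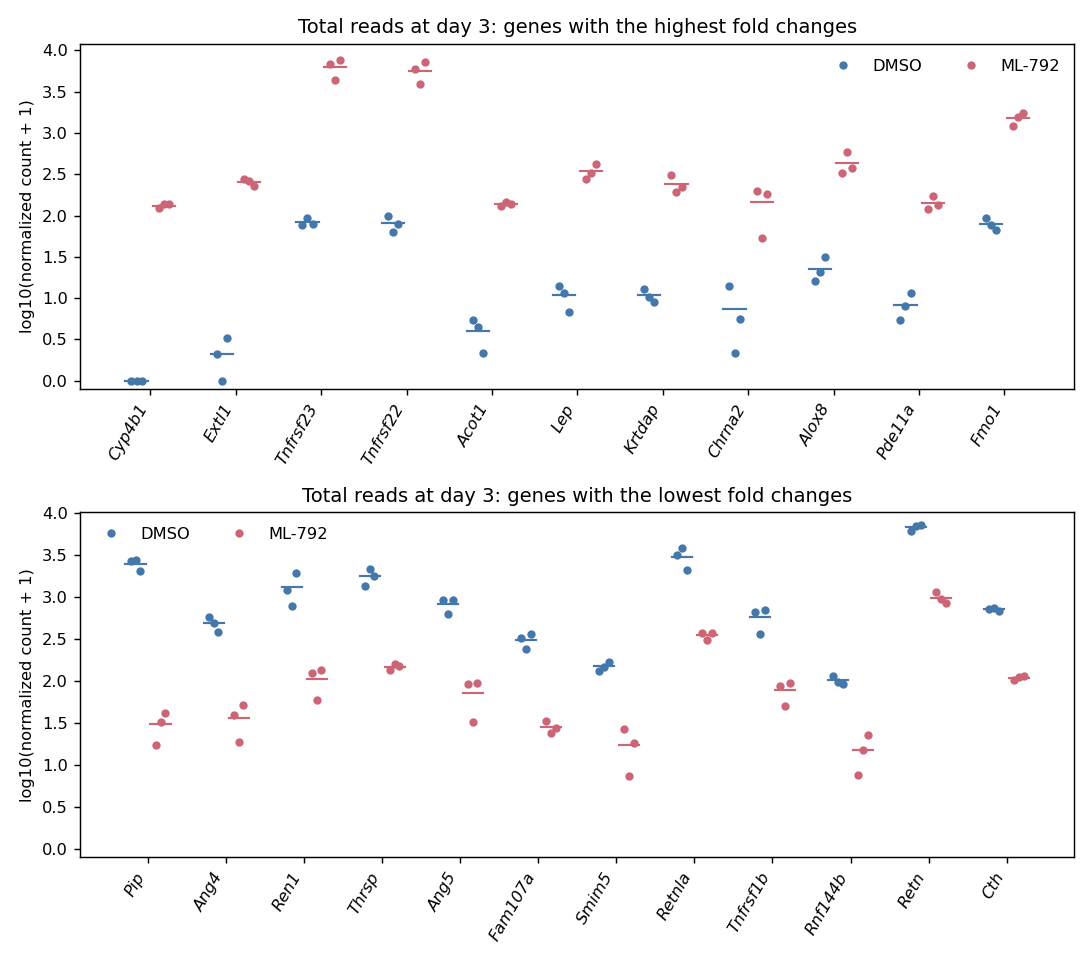
Normalized total counts at day 3, on a log10(count + 1) axis, for 11 of the 12 genes with the highest (upper panel) and for the 12 with the lowest (lower panel) fold change in ML-792 against DMSO. Each point is 1 library, ordered A, B, C, and each line the mean of 3 libraries; the 3 ML-792 libraries lie wholly above or wholly below the 3 DMSO libraries for every gene shown, as the rule that chose them requires.

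In labelled reads far fewer genes passed. Among 6208 genes tested, 27 were higher (0.435%) and 45 lower (0.725%) in ML-792 at day 3, with a median log2 fold change of -0.07. With the replicate letter as a block 51 were higher and 80 lower, DESeq2 called 55 and 75, and without both B libraries 7 and 7 were called. Single libraries mattered too, since the counts were 11 and 14 without ML-792 replicate A, 8 and 26 without DMSO replicate B, 14 and 25 without DMSO replicate C, 21 and 18 without ML-792 replicate B, and 19 and 25 without ML-792 replicate C. In counts simulated from each gene's mean rate over all 24 libraries, the labelled test recovered 0% of genes changed by 1 and 32% of genes changed by 2 on the log2 scale. For total reads the shares were 58% and 89%. The labelled share was higher at day -2 than at day 3, so the simulated labelled counts were not those of day 3 alone. Most simulated labelled changes of these sizes were thus missed.

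The gene with the lowest adjusted p in labelled reads was Rgs2, which dampens signaling from G protein-coupled receptors. Its labelled counts were 436, 442 and 412 in DMSO and 97.8, 44.3 and 80.4 in ML-792 (log2 fold change -2.53 ± 0.30, adjusted p = 9.2e-08). Its total counts were 22600, 20800 and 23500 against 4540, 3310 and 4300 (-2.46 ± 0.17, adjusted p = 1.1e-09). The 3′ UTR entry behind these values lies on the minus strand of mm10 at chr1:143999338-144001679. Rgs2 stayed called in both tables when any library was left out.

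Among the labelled genes that were higher, Tnfrsf23 and Tnfrsf22 came first again. Tnfrsf22 had no labelled read in DMSO and 38, 50.7 and 67 in ML-792, at least 45.2-fold higher (adjusted p = 9.2e-05). Gpd1, which makes the glycerol backbone of triglycerides, went from 10.9, 9.27 and 12.7 labelled counts to 88, 72.2 and 74.3 (log2 fold change 2.82 ± 0.47, adjusted p = 9.7e-05), and in total counts from 4610, 4820 and 5510 to 27300, 25200 and 27600 (2.42 ± 0.21, adjusted p = 1.7e-08). Matrix genes followed. Postn, or periostin, had 27.4, 18.5 and 15 labelled counts against 148, 69.7 and 167 (2.65 ± 0.42, adjusted p = 4.3e-05). Fn1, or fibronectin, had 8.75, 22 and 8.1 against 58.7, 69.7 and 56 (2.24 ± 0.36, adjusted p = 6.9e-05). Sntb2, Soat1, which esterifies cholesterol, Acot7, Ly6e, Rhoj and Plpp1 were also among the 12 highest, with labelled log2 fold changes from 1.91 to 2.97, and of these 6 only Sntb2 stayed called whichever single library was left out. Sntb2 in turn was not called once both B libraries were left out together.

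At the lower end, Spry1, which restrains growth factor signaling to ERK, fell from 28.5, 47.5 and 50.9 labelled counts in DMSO to 1.09, 3.8 and 2.44 in ML-792 (log2 fold change -4.08 ± 0.64, adjusted p = 4.3e-05). Ren1 fell from 475, 268 and 713 to 0, 13.9 and 39 (-4.79 ± 0.77, adjusted p = 0.0036), a call that was lost in a fit of the 6 day 3 libraries alone (adjusted p = 0.27). Some mouse strains carry a near-identical second renin gene, and how reads would be divided with it is uncertain. More than 30% of its reads carried a conversion in every DMSO library, while no read did in ML-792 replicate A. A base difference between this cell line and the reference would also be counted as labelling, and the cause of these levels was not tested. Cdc20, an activator of the anaphase-promoting complex, fell from 16.4, 19.7 and 25.5 to 1.09, 1.27 and 3.66 (-3.29 ± 0.76, adjusted p = 0.022), a call that was lost without ML-792 replicate A or B. Prr5l, Anxa8, Clic4, Tgfb1i1, Enpp2, which makes lysophosphatidic acid, Kcnk3, a potassium channel, and Cks1b completed the 12 lowest with Rgs2 and Btg2, and each of these 7 lost its call when some single library was left out. Tgfb1i1, which was 2.53 lower in labelled reads, had 485, 334 and 400 total counts in DMSO against 577, 358 and 501 in ML-792 and was not called there.

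Immediate early genes, which growth factors and cAMP switch on within minutes and whose RNA is short-lived, were lower in several members in both kinds of read. Of 24 tested in labelled reads 8 were lower and none higher, with a median log2 fold change of -0.75, and of 24 tested in total reads 9 were lower and 1 higher, with a median of -0.40. The 8 in labelled reads were Btg2, Dusp1, Ier2, Zfp36, Egr2, Fos, Egr1 and Fosb, and without both B libraries 3 were lower. Btg2, an antiproliferative adaptor of mRNA deadenylation, fell from 138, 187 and 167 labelled counts to 30.4, 57 and 19.5 (-2.20 ± 0.34, adjusted p = 4.3e-05). Dusp1, the phosphatase that shuts off p38 and JNK, fell from 165, 105 and 191 to 31.5, 51.9 and 35.3 (-1.96 ± 0.33, adjusted p = 9.2e-05). Neither group came near the other in these 2 genes, in labelled or in total reads. Total counts of Btg2 were 1950, 2850 and 2870 against 830, 990 and 816 (-1.54 ± 0.20), and those of Dusp1 were 1480, 1470 and 1880 against 632, 546 and 531 (-1.50 ± 0.16).

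Fos and Fosb, partners of Jun in the AP-1 factor, and Egr1, a zinc finger factor, were called in labelled reads only. Fos had 73.3, 71.9 and 92.6 labelled counts in DMSO and 31.5, 40.5 and 26.8 in ML-792 (log2 fold change -1.26 ± 0.32, adjusted p = 0.044), while its total counts overlapped, at 690, 1320 and 1350 against 651, 954 and 582 (adjusted p = 0.21). Jun itself had 115, 140 and 159 labelled counts against 90.2, 86.1 and 79.2 (adjusted p = 0.43), and in total counts it fell by 0.42 (adjusted p = 0.053). Ier2, Zfp36, which destabilizes AU-rich mRNAs, and Egr2 were lower in both tables, by 1.49, 1.58 and 1.55 in labelled and by 0.83, 1.07 and 1.02 in total reads. The exception was Dusp6, the ERK phosphatase, whose total counts rose from 1070, 1390 and 875 to 2740, 3000 and 2490 (1.30 ± 0.19, adjusted p = 4.2e-05). No test of the difference between the 2 kinds of read was made, since they come from the same libraries.

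**Figure D2:**
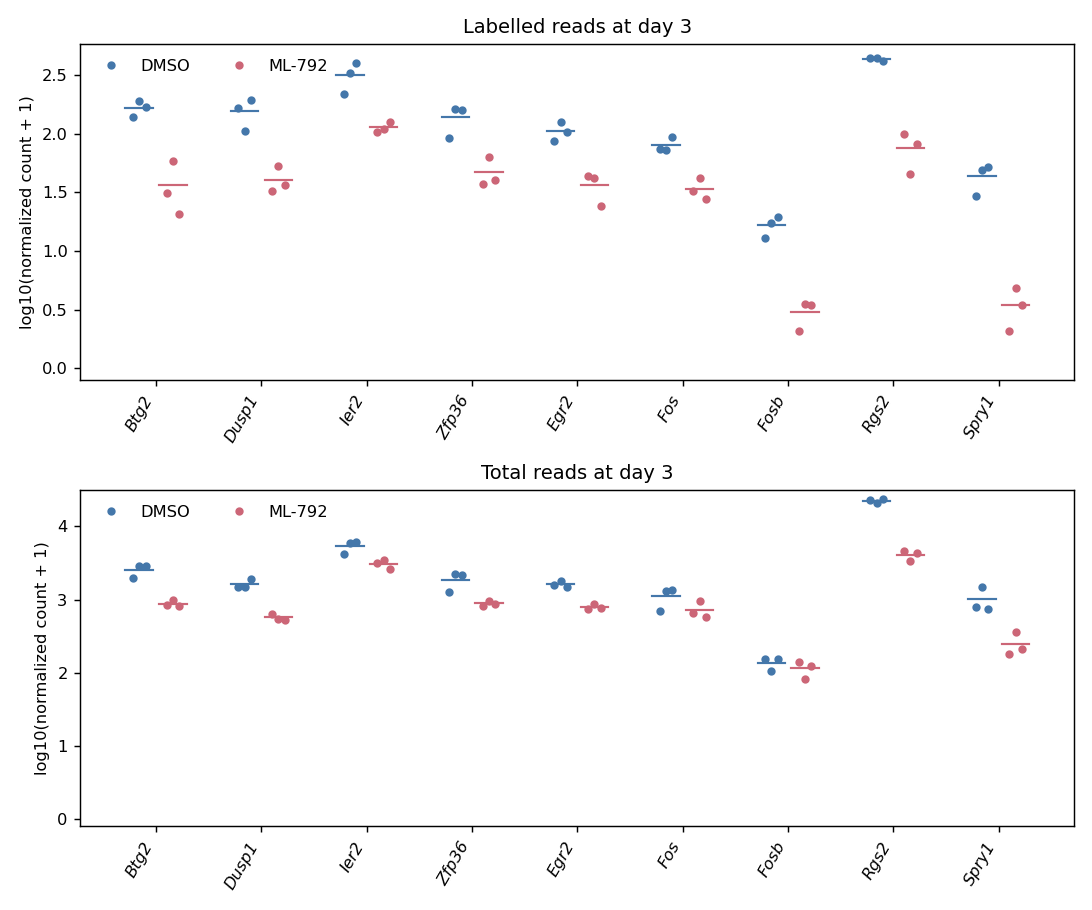
Normalized labelled counts (upper panel) and total counts (lower panel) at day 3 on log10(count + 1) axes for 7 immediate early genes and for Rgs2 and Spry1. Points are single libraries and lines the means of 3. All 9 genes were called lower in labelled reads, and Egr1, also called, and the 16 immediate early genes not called are not shown. Labelled counts are lower in every ML-792 library than in any DMSO library for all 9 genes, as in 44 of the 45 genes called lower in labelled reads. The total counts of Fos and Fosb overlap between the treatments.

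The palindromic cAMP response element, TGACGTCA, was searched in RefSeq promoters (GRCm38.p6, 250 bases before to 50 after the gene start). This element occurs for 2.03% of 27025 genes with a promoter, and for 3.56% of the 9914 such genes tested in total reads. It stands in promoters of genes called in opposite directions, and 4 of them are shown because Btg2 and Dusp1 were lower in both tables while Dio2 and Plk2 were higher in total reads. Capitals mark the element, the sequences read 5′ to 3′ along the gene, and a palindrome reads the same on both strands. They lie at chr1:134079304-134079331 and chr17:26508598-26508625 on the minus strand for Btg2 and Dusp1, at chr12:90739116-90739143 on the minus strand for Dio2, and at chr13:110394972-110394999 on the plus strand for Plk2.
Btg2: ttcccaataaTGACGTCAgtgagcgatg
Dusp1: gtagggcgggTGACGTCAccgcccggtc
Dio2: tctttctcaaTGACGTCAagatctttag
Plk2: gcgctcgccgTGACGTCAcgaggccccg
A promoter was listed for 74.7% of the genes tested in total reads and for 78.1% of those in labelled reads, below the 80% set for comparing shares between called and other genes, so no such comparison is given. Dio2, the enzyme that activates thyroid hormone and a known cAMP target, rose from 14.2, 12.8 and 12.7 total counts to 150, 96.3 and 90.2 (log2 fold change 3.07 ± 0.59, adjusted p = 8.8e-04). Plk2, a kinase under p53 and serum, rose from 61.3, 125 and 89.1 to 342, 298 and 425 (1.95 ± 0.21, adjusted p = 5.9e-07). The matches describe letters in the genome, and no binding was measured here.

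The genes of the SUMO pathway itself held few calls. Of 25 tested in total reads, only Sumo3, a SUMO form nearly identical to Sumo2 in its mature part, was called: 5860, 3910 and 5560 in DMSO against 16000, 8070 and 12300 in ML-792 (log2 fold change 1.25 ± 0.28, adjusted p = 0.0039). The subunits of the enzyme that ML-792 inhibits were Sae1, at 2480, 1780 and 1870 against 2470, 1560 and 1810 (-0.07 ± 0.20, adjusted p = 0.92), and Uba2, at 953, 1040 and 1350 against 887, 947 and 1420 (-0.04 ± 0.21, adjusted p = 0.97). With the letter as a block 3 members were higher and 2 lower, and Sae1 and Uba2 were again not called (adjusted p = 0.71 and 0.93). The inhibitor acts on the protein, so these RNA levels are no check of the treatment. Among 15 genes of the PML body and of SUMO-dependent repression 3 rose and none fell. These were Atf7ip, which stabilizes the histone methyltransferase Setdb1, at 816, 895 and 879 against 1770, 1910 and 1830 (1.09 ± 0.14, adjusted p = 4.9e-06), Mbd1, a reader of methylated DNA, and Sp100, a PML body protein that went from between 1.16 and 5.47 to between 39.3 and 50. Pml was not called (-0.08 ± 0.40, adjusted p = 0.96).

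Most tested genes under ATF4, the factor of the amino acid response, were called lower. Of 25 tested in total reads 17 fell and none rose, with a median log2 fold change of -0.92 beside 0.02 over all genes, and 11 were lower without both B libraries. Mthfd2, of mitochondrial one-carbon metabolism, fell from 12300, 10700 and 14600 to 5340, 4840 and 4780 (-1.33 ± 0.15, adjusted p = 1.4e-06). Asns, asparagine synthetase, fell from 7550, 10000 and 8870 to 3380, 4410 and 3950 (-1.17 ± 0.16, adjusted p = 1.7e-05). Slc7a5, a carrier of large neutral amino acids, fell from 1450, 1400 and 1540 to 508, 333 and 353 (-1.88 ± 0.26, adjusted p = 1.7e-05). In each of the 3 genes the ML-792 libraries lay wholly below the controls, as in 882 of the 931 genes called lower.

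Trib3, a pseudokinase that feeds back on ATF4 and on insulin signaling, fell by 1.64, Chac1, which breaks down glutathione, by 1.92, Slc7a11, the cystine carrier, by 1.94, and the stress factors Ddit3 and Atf5 by 1.00 and 0.94. Atf4 RNA itself was at 9120, 10900 and 8990 in DMSO and 8720, 7770 and 6040 in ML-792 and was not called (log2 fold change -0.36 ± 0.17, adjusted p = 0.22), although it was lower with the letter as a block (adjusted p = 0.028). In labelled reads 3 of 22 were lower, Ddit4, Mthfd2 and Trib3, and none higher, and none was called without both B libraries. Of the ER chaperones and heat shock genes, Herpud1 fell in total reads by 1.39 and Cryab, a small heat shock protein, rose from 42.7, 41.7 and 47.4 to 164, 142 and 199. Hspa5, the main chaperone of the ER, was lower in labelled reads, at 156, 195 and 191 against 90.2, 74.7 and 73.1 (-1.18 ± 0.29, adjusted p = 0.033), a call that stayed in 1 of 6 fits with a library left out, with total counts of 16500, 17100 and 13500 against 16100, 15300 and 13500.

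Many mitosis genes were lower. Of 30 tested in total reads 17 fell and none rose, with a median log2 fold change of -0.96, while of 32 DNA replication genes 5 fell and 1 rose, with a median of -0.25. Top2a, the topoisomerase that untangles chromosomes, fell from 2730, 2050 and 2340 to 947, 832 and 1130 (-1.29 ± 0.21, adjusted p = 1.7e-04). Cdca3, a regulator of mitotic entry, fell from 474, 552 and 624 to 180, 213 and 236 (-1.39 ± 0.19, adjusted p = 1.3e-05), Birc5, or survivin, by 1.13, and the cyclin Ccnb2 by 1.52. By day 3 these genes were already well below their level of clonal expansion, since Top2a averaged 8510 in DMSO at day 1 and 2370 at day 3. The replication genes that fell, among them Mcm10, Rrm2 and Uhrf1, were less firm, and without both B libraries no replication gene and 9 mitosis genes were lower. In labelled reads Cdc20 and Fen1, a nuclease of replication, were the only members lower, of 19 and 14 tested, and neither was called without both B libraries. Ccnd1, the cyclin of early G1, was a contrast: it rose from 1860, 1910 and 1980 to 6770, 6470 and 6040 (1.74 ± 0.13, adjusted p = 1.6e-09).

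The transcription factors of adipogenesis gave no single direction. Of 24 tested in total reads 4 rose and 5 fell, with a median log2 fold change of -0.01, and without both B libraries 4 were higher and 2 lower. Pparg stood at 5390, 5310 and 6310 in DMSO and at 3030, 2810 and 6200 in ML-792, where replicate C reached the controls, and it was not called (-0.50 ± 0.46, adjusted p = 0.63). Its labelled counts had the same shape, at 96.3, 60.3 and 79.8 against 21.7, 26.6 and 112. Cebpa was at 10500, 7500 and 12600 against 10500, 5800 and 7490 (-0.36 ± 0.30, adjusted p = 0.59). With the letter as a block Cebpa was called lower (-0.37, adjusted p = 0.061) and Pparg was not (adjusted p = 0.47), and 7 factors were higher and 6 lower. Foxo1, a factor restrained by insulin, rose from 1550, 1740 and 1500 to 3720, 3790 and 3500 (1.199 ± 0.149, adjusted p = 4.2e-06). Ppargc1a, the coactivator of mitochondrial genes, rose from 280, 181 and 127 to 654, 719 and 820 (1.90 ± 0.25, adjusted p = 1.1e-05). Cebpd, which acts early, fell from 2290, 3220 and 2880 to 1590, 1950 and 1590 (-0.71 ± 0.17, adjusted p = 0.0066), and Stat5a and Rxra, the partner of Pparg, fell by 0.81 and 0.65. Among Krüppel-like factors, Klf10 rose from 650, 530 and 557 to 1010, 1330 and 1690 (1.22 ± 0.23, adjusted p = 6e-04), whereas Klf3 (0.32 ± 0.48) and Klf5 (0.58 ± 0.39) were not called, although both were with the letter as a block (adjusted p = 0.085 and 0.0077). In labelled reads none of 21 factors was called, but Ppargc1a, at 5.47, 0 and 0 against 19.6, 10.1 and 14.6, was called by DESeq2 (adjusted p = 0.054) and with the letter as a block (adjusted p = 0.096).

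Genes of lipid synthesis split as well, with 6 of 25 higher and 7 lower in total reads. Gpd1, the elongases Elovl3 and Elovl6, Me1, malic enzyme, Mgst1 and Acacb rose. Elovl3 went from 327, 490 and 321 to 1920, 2380 and 1980 (log2 fold change 2.46 ± 0.34, adjusted p = 2.1e-05) and Elovl6 from 196, 264 and 137 to 616, 868 and 636 (1.83 ± 0.27, adjusted p = 4.1e-05). Fasn, fatty acid synthase, was among the lower genes, at 28700, 22200 and 29700 against 19500, 12500 and 16800 (-0.72 ± 0.25, adjusted p = 0.071), with Thrsp, Dgat1, Agpat2, Slc25a1, Gpam and Pcx. Without both B libraries 6 were higher and 2 lower, and with the letter as a block 6 and 11. Scd1, stearoyl-CoA desaturase, was below every control in each ML-792 library, at 19600, 25200 and 18600 against 14300, 18500 and 13700, but was not called (-0.45 ± 0.22, adjusted p = 0.25). Its labelled counts were 208, 211 and 194 against 96.7, 108 and 105 (-0.99 ± 0.33, adjusted p = 0.19). With the letter as a block Scd1 was called lower in total (adjusted p = 0.0044) and in labelled reads (adjusted p = 0.048), and DESeq2 called it in labelled reads (adjusted p = 0.027).

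Lipid droplet and uptake genes held strong changes in either direction, and oxidation genes held few calls. Plin2, the coat protein of small droplets, rose from 3260, 3220 and 4130 to 12300, 10400 and 9000 (log2 fold change 1.58 ± 0.16, adjusted p = 1.7e-07). Aqp7, the glycerol channel, rose from 5.47, 8.11 and 6.94 to 121, 166 and 93.8 (4.19 ± 0.44, adjusted p = 3.3e-07). Cav1, the caveolin of the adipocyte surface, went the other way, from 7440, 9810 and 8420 to 2450, 3010 and 3140 (-1.58 ± 0.18, adjusted p = 8.2e-07). In that list 6 of 19 rose and 5 fell, the lipases Lipe and Pnpla2 among the latter at -0.56 and -0.66, and without both B libraries 4 were higher and 1 lower. For uptake, Slc27a1 rose from 227, 275 and 355 to 1410, 1040 and 1100 (2.05 ± 0.23, adjusted p = 6.7e-07) and Cd36, the fatty acid receptor, by 1.61, while Fabp5 fell by 1.31, in a list with 4 of 14 higher and 2 lower. Fabp4 was uneven in DMSO, at 134000, 193000 and 82300 against 189000, 237000 and 219000, and was not called (adjusted p = 0.15), although within each letter ML-792 was the higher and with the letter as a block it was called (0.71, adjusted p = 0.01). Of 32 genes of mitochondrial oxidation 3 rose and none fell, beside 8.44% higher and 7.02% lower of all genes tested, so the rises were near that background. Acaa2, a thiolase of fatty acid oxidation, rose from 1850, 1710 and 2100 to 9800, 8050 and 10200 (2.31 ± 0.19, adjusted p = 8.2e-09). The others were Cpt1a, the gate of fatty acids into mitochondria, and Slc25a20. With the letter as a block 9 oxidation genes were higher and 2 lower. Brown and beige fat markers were higher in 3 of 5 tested, namely Dio2, Elovl3 and Ppargc1a, and Ucp1, which defines brown fat, did not pass the filter on low counts.

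Secreted adipocyte proteins were divided evenly, with 6 of 19 higher and 6 lower in total reads. Besides leptin the higher ones were Arxes1 and Arxes2, near-identical copies whose reads may be split between them, Cp, or ceruloplasmin, Saa3, an acute phase protein, and Lcn2. Cp went from 390, 319 and 245 to 1180, 1010 and 1380 (log2 fold change 1.90 ± 0.20, adjusted p = 3.4e-07) and Saa3 from 486, 307 and 457 to 2100, 1540 and 2890 (2.38 ± 0.31, adjusted p = 9.1e-06). Adipoq fell from 28900, 28300 and 34100 to 18800, 15800 and 15700 (-0.86 ± 0.22, adjusted p = 0.012). Agt, angiotensinogen, the substrate of renin, fell by 1.59 ± 0.21 on the log2 scale in total reads (adjusted p = 8.1e-06) and by 1.83 ± 0.42 in labelled reads (adjusted p = 0.02). Retn, Serpina3n, Nampt and Apln were the other lower members. In glucose handling, Slc2a4, the insulin-responsive transporter GLUT4, fell from 674, 822 and 576 to 246, 217 and 184 (-1.68 ± 0.25, adjusted p = 3.8e-05), and Pik3r1, a subunit of PI3-kinase, rose by 1.136, in a list with 3 of 18 higher and 2 lower.

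Genes that mark pre-adipocytes and fibroblasts were higher more often than lower. Of 25 tested in total reads 11 rose and 3 fell, with a median log2 fold change of 0.55, and without both B libraries 8 were higher and 2 lower. Ly6a, the surface antigen Sca-1 of progenitors, rose from 387, 338 and 356 to 4040, 4270 and 4510 (3.57 ± 0.18, adjusted p = 4.4e-12). Dpt, or dermatopontin, rose from 677, 680 and 796 to 3670, 3950 and 3110 (2.32 ± 0.17, adjusted p = 1.6e-09). Pdgfra, the receptor that marks adipocyte progenitors, rose from 894, 860 and 1100 to 2600, 2700 and 2660 (1.48 ± 0.14, adjusted p = 4.2e-08). The ML-792 libraries stood close together and far above the controls in all 3. Gata3, which holds back adipogenesis, rose by 2.57 and Thy1 by 0.89. Lum, Cd44 and Cxcl12 fell, Cd44 from 1180, 1040 and 1040 to 745, 761 and 761 and Cxcl12 from 4390, 5540 and 5050 to 2990, 3310 and 3090, and Cxcl12 was not called without both B libraries.

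The extracellular matrix list was mixed, with 10 of 32 higher and 7 lower in total reads and 3 of 29 higher in labelled reads, and without both B libraries 9 were higher and 4 lower in total reads. Postn rose from 2270, 2570 and 1620 to 10600, 12500 and 12100 total counts (log2 fold change 2.44 ± 0.19, adjusted p = 4e-09), Lox, which crosslinks collagen, from 562, 625 and 469 to 2170, 2140 and 1690 (1.86 ± 0.15, adjusted p = 9.1e-09), and Thbs2 by 2.05. Col1a1, the main collagen chain, rose from 6920, 6920 and 7890 to 19300, 14800 and 18600 (1.28 ± 0.22, adjusted p = 2.3e-04), and Sparc, a collagen-binding protein, was higher in both tables, by 1.19 in total and 1.08 in labelled reads, where the call was lost in 4 of 6 fits with a library left out. Fbn1, or fibrillin, fell from 188, 241 and 226 to 85.9, 77.3 and 46.3 (-1.64 ± 0.23, adjusted p = 2.7e-05), Tnc, or tenascin, by 1.66, and Col4a1, a basement membrane collagen, by 0.73. Of 28 Wnt, BMP and TGF-beta genes 4 rose and 5 fell, or 2 and 3 without both B libraries and 6 and 9 with the letter as a block. Grem1, an antagonist of BMP ligands, rose by 3.46, and Lef1, a factor of the Wnt pathway, fell from 1950, 1910 and 2290 to 465, 369 and 353 (log2 fold change -2.37 ± 0.19, adjusted p = 4.4e-09).

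Smaller shifts marked several other lists in total reads. Cholesterol synthesis genes were lower in 7 of 22 and higher in none, with a median log2 fold change of -0.42, and 4 were lower without both B libraries and 3 without ML-792 replicate A, and with the letter as a block 2 were higher and 11 lower. Examples were Cyp51, a demethylase of lanosterol, at 5190, 6680 and 4790 against 3180, 3650 and 3260 (-0.72 ± 0.18, adjusted p = 0.0074) and Stard4, a sterol carrier, at -0.85. Glucocorticoid response genes were higher in 7 of 17 and lower in 2, or 6 and 0 without both B libraries, with Tsc22d3, or GILZ, from 2440, 2340 and 3250 to 7240, 5520 and 7650 (1.35 ± 0.19, adjusted p = 2.1e-05). Of 19 p53 targets 6 were higher and 1, Btg2, lower, or 4 and 1 without both B libraries and 11 and 1 with the letter as a block. Trp53inp1 rose from 3920, 3180 and 2440 to 7980, 6210 and 9140 (1.29 ± 0.20, adjusted p = 7.5e-05), while Fas, Eda2r, Phlda3 and Zmat3 rose by less than 1.

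Interferon-stimulated genes were higher in 7 of 30 and lower in 2, with a median log2 fold change of 0.66, and without both B libraries 5 were higher and none lower. Gbp2, a guanylate-binding protein, rose from 19.7, 8.11 and 52.1 to 138, 157 and 185 (2.58 ± 0.42, adjusted p = 1.2e-04), and Tap1, Psmb8 and Psmb9 of antigen processing rose by 1.07, 1.21 and 1.77. Isg15, among the most widely used of these markers, was at 30.6, 41.7 and 31.2 against 26.1, 41.8 and 32.9 (-0.04 ± 0.35, adjusted p = 0.98). Clustered protocadherins were higher in 4 of 12 and lower in none. Pcdhb17 went from 21.9, 16.2 and 15 to 51.1, 62.1 and 36.6 (1.48 ± 0.31, adjusted p = 0.0017), although a single protocadherin was called without DMSO replicate B, or without both B libraries. Of 20 germline genes 2 passed the filter and Ddx4, an RNA helicase of germ cells, rose from 20.8, 24.3 and 11.6 to 62, 98.8 and 122 (2.31 ± 0.37, adjusted p = 1e-04). The other lists are set beside 8.44% higher and 7.02% lower of all genes tested. NRF2 genes (4 of 20 higher and 2 lower) and cytokines (4 of 21 and 4) held more calls than these shares, on small numbers. The cAMP response genes (2 of 14 and 1), heat shock genes (2 of 23 and 2) and MYC and ribosome biogenesis genes (2 of 21 and 0) differed from them by few genes. SRF and YAP genes (1 of 22 and 1) and ribosomal proteins (1 of 24 and 1) lay below them. With the replicate letter as a block 11 MYC and ribosome biogenesis genes were higher. Markers of bone and cartilage were higher in 2 of 5, Spp1 and Runx2, each called in 3 of 6 fits with a library left out, and the single muscle marker tested, Des, was lower, a call that was lost whenever a library was left out. Their part in the other results was not tested. Of the 143 common targets of PPARG, RXR and SUMO, a list the study drew from these same samples, 24 were higher and 25 lower. Both counts lay above the shares over all genes tested, 8.44% higher and 7.02% lower, while the median was -0.03. The counts were 15 and 15 without both B libraries and 31 and 42 with the letter as a block.

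**Figure D3:**
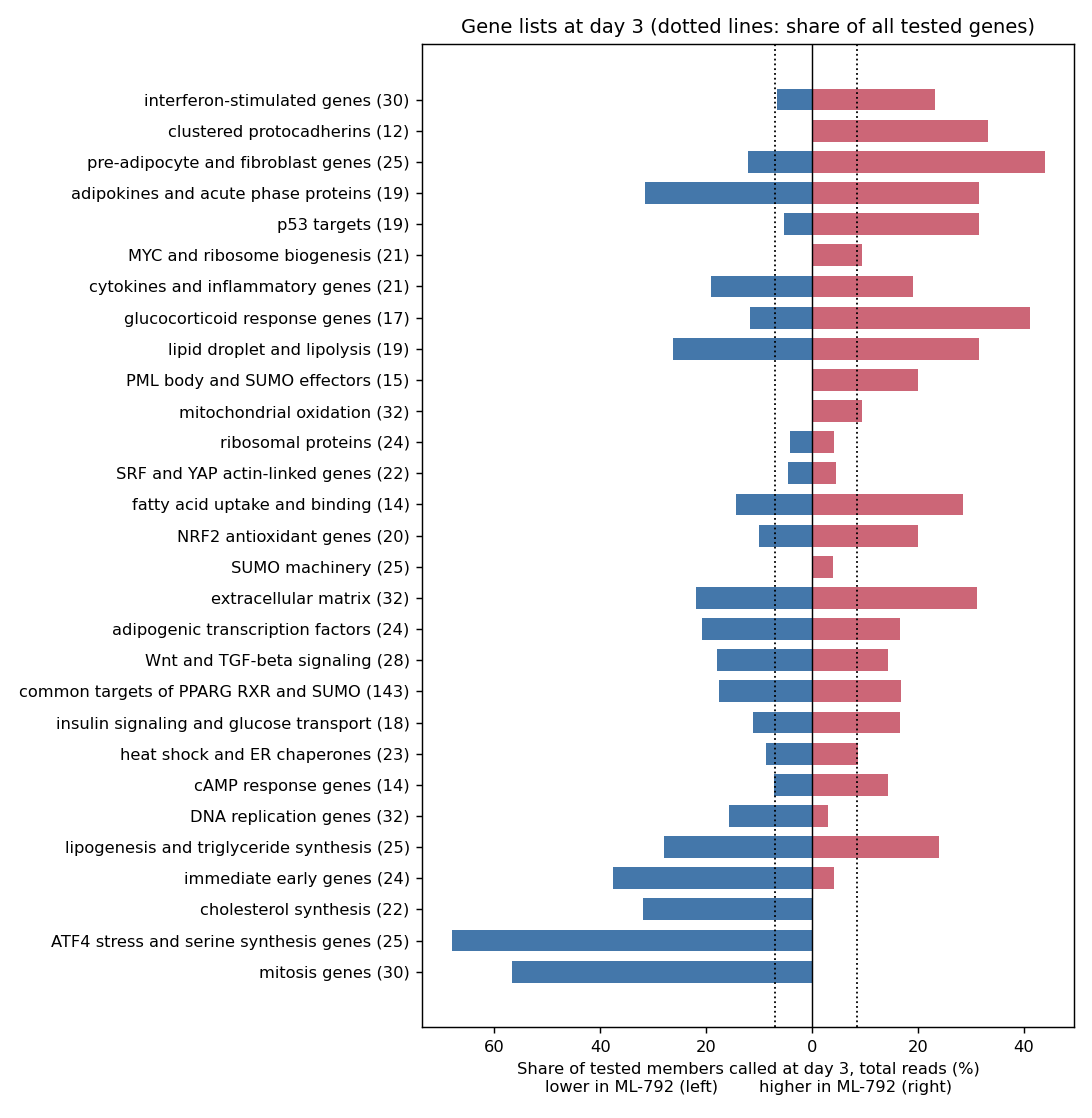
Share of the tested members of each gene list (number tested in brackets) that was called higher (right, red) or lower (left, blue) in ML-792 at day 3 in total reads, for the lists with at least 10 tested members, ordered by median log2 fold change. Dotted lines mark the share over all tested genes, 8.44% higher and 7.02% lower; the ATF4 and mitosis lists reach furthest to the left, at 17 of 25 and 17 of 30.

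Genes were also sorted by their levels in the DMSO time course. Pre-adipocyte (PA) genes were lower at day 7 than at day -2 and mature adipocyte (MA) genes higher, by edgeR at an adjusted p under 0.01. Clonal expansion (CE) genes were higher at day 1 than at both day -2 and day 7 and were taken out of the PA and MA classes. This sorting uses none of the day 3 libraries' own means. Of 2663 PA genes, 424 were higher (15.9%) and 201 lower (7.55%) at day 3 in ML-792. Of 542 CE genes, 78 were higher (14.4%) and 106 lower (19.6%), and of 2791 MA genes, 256 were higher (9.17%) and 353 lower (12.6%). Over all tested genes the shares were 8.44% and 7.02%, so the higher share of MA genes and the lower share of PA genes were near that background. Without both B libraries 309 PA genes were higher and 103 lower, 63 CE genes higher and 61 lower, and 175 MA genes higher and 204 lower. The PA genes that rose did so from a low level. In 374 of the 424 the ML-792 mean lay between the DMSO means of days 3 and -2, and in 49 it lay above that of day -2. Pltp, which transfers phospholipids between lipoproteins, was at 61.3, 69.5 and 71.7 in DMSO and at 799, 813 and 789 in ML-792 (log2 fold change 3.57 ± 0.20, adjusted p = 2.5e-11), beside a mean of 1410 in DMSO at day -2. Rab8b, a small GTPase of membrane traffic, and Ablim1, which binds actin, were further examples at 3.17 and 2.27. Of the 353 MA genes that fell, 256 had an ML-792 mean between the DMSO means of days -2 and 3, and 140 were also lower at day 7. The sorting favours such positions, since DMSO at day 3 was below day -2 in 420 of the 424 PA genes and in 21 of the 353 MA genes. The contrast at day 7 uses the same DMSO day 7 libraries that defined the MA class, which favours lower calls there.

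Over a whole class the shift was small. The median level of PA genes over their DMSO day -2 mean was -1.67, -1.69 and -1.78 on the log2 scale in DMSO at day 3 and -1.57, -1.61 and -1.55 in ML-792, so all 3 ML-792 libraries were slightly above the controls. CE genes had medians of 0.28, 0.39 and 0.31 in DMSO and 0.23, 0.18 and 0.19 in ML-792. MA genes, at 1.12, 1.18 and 1.23 against 1.17, 1.13 and 1.18, overlapped. In labelled reads 13 of 1484 PA genes were higher and 15 lower, 2 of 302 CE genes higher and 6 lower, and 6 of 1330 MA genes higher and 18 lower, beside 0.435% and 0.725% of all genes tested. The order turned for PA genes, to 26 higher and 20 lower when labelled reads were scaled by themselves and to 27 and 24 with the letter as a block.

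**Figure D4:**
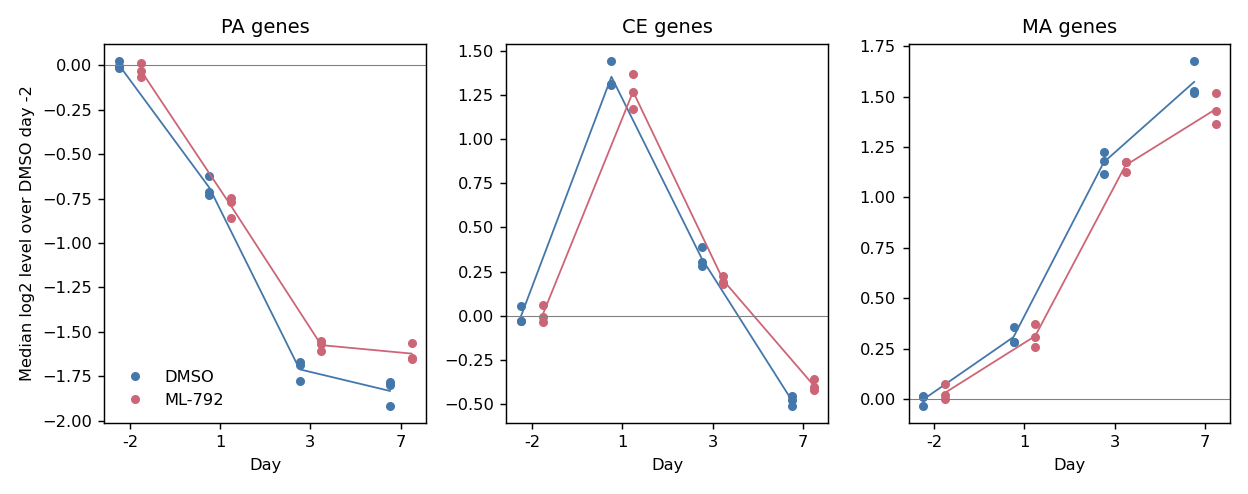
Median log2 level of PA, CE and MA genes over the mean of the DMSO day -2 libraries, in total reads, by day. Each point is 1 library and each line joins the means of 3; at day 3 the PA medians in ML-792 (-1.61 to -1.55) lie above those in DMSO (-1.78 to -1.67), the CE medians below, and the MA medians overlap.

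The day 3 response was set beside those of the days before and after. In total reads at day 1, 500 genes were higher (3.77%) and 577 lower (4.35%) in ML-792, and at day 7, 812 were higher (6.12%) and 751 lower (5.66%). At day -2 none was called, with 184 genes at an unadjusted p under 0.05 by edgeR. Of the 1120 genes higher at day 3, 289 were also called higher at day 1 and 427 at day 7, 136 at both and 513 at neither. Of the 931 lower, 222 were lower at day 1 and 263 at day 7, 65 at both and 493 at neither. A gene missed at a day may still have changed, so the ML-792 effects themselves were compared. The effect at day 3 differed from that at day 1 for 633 genes (4.77%) and from that at day 7 for 587 (4.43%), and with the replicate letter as a block for 1413 and 1481. In labelled reads these comparisons called 2 genes (0.0322%), Fos and Slc6a6, and 1 gene (0.0161%), Fn1, and DESeq2 called 34 and 34.

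Single genes followed different courses over the days. Pip averaged 6460 in DMSO and 501 in ML-792 at day 1, then 2480 against 29.4 at day 3, so its log2 fold change deepened from -3.69 to -6.41. Retn and Thrsp, which DMSO cells start to express after day 1, were low at day 3 under ML-792 and nearer the control at day 7. At day 7 Retn averaged 22200 in DMSO against 18700 in ML-792 and was not called. Adipoq was lower at day 3 and higher at day 7, with log2 fold changes of -0.86 and 0.79. Scd1 averaged 2860 in DMSO against 8010 in ML-792 at day 1, 21100 against 15500 at day 3 and 107000 against 33700 at day 7. It was called higher at day 1 and lower at day 7. Postn fell in DMSO from a mean of 12600 at day 1 to 2150 at day 3, and in ML-792 it was 11900 and 11700. Lep was not called at day 1 and was higher at day 7, at 33.1 in DMSO against 466 in ML-792.

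**Figure D5:**
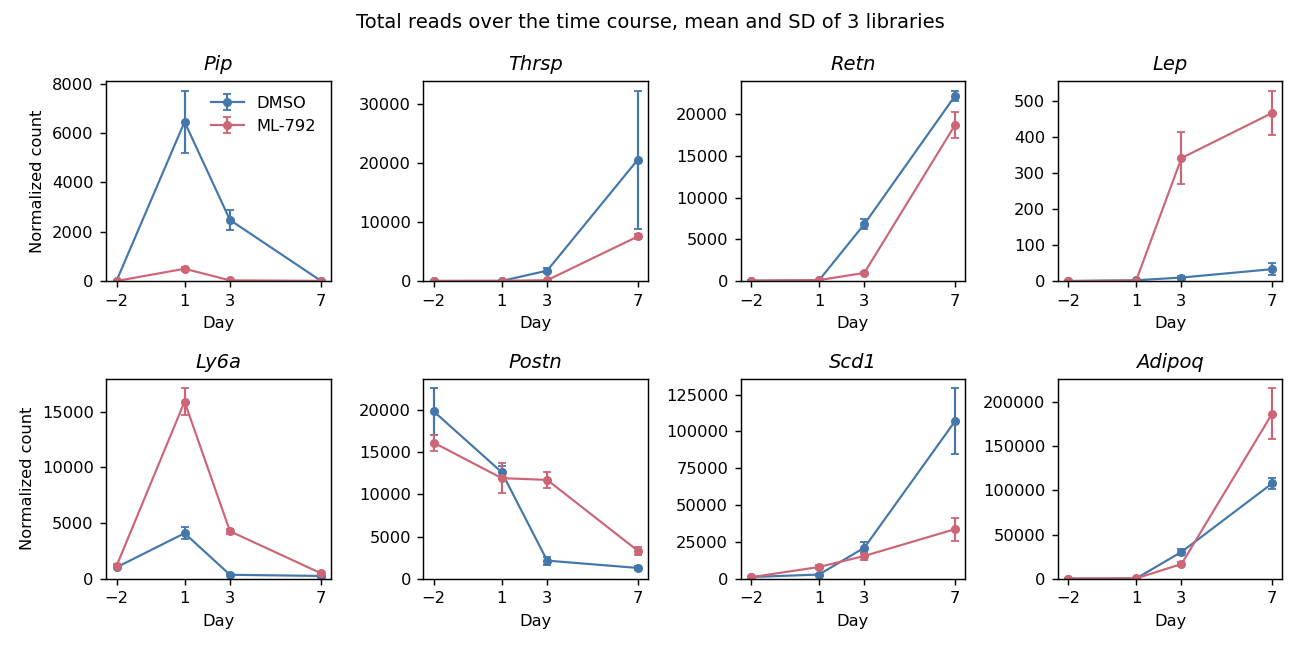
Normalized total counts of 8 genes by day in DMSO and ML-792, as the mean of 3 libraries with the SD as error bars. Pip, Thrsp and Retn are lower in ML-792 at day 3 and Lep, Ly6a and Postn higher; Scd1 and Adipoq change the order of the treatments between days.

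The share of all reads that was labelled did not differ detectably between the treatments. It was 1.02% ± 0.11 (SD, n = 3) in DMSO and 0.936% ± 0.036 (SD, n = 3) in ML-792 at day 3, a difference of -0.0857 percentage points (two-sided exact permutation test, p = 0.3, where a design of 3 against 3 allows no p below 0.1). Left out 1 library at a time, the difference stayed below 0, from -0.141 to -0.0287 percentage points.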

How the data were processed

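RNA from 24 cultures (6 used here) was read once as total and once as labelled reads. Per the labels and the study's methods, the authors demultiplexed with bcl2fastq 2.17.1.14, aligned and counted with SlamDunk on RefSeq 3′ UTRs of mm10, and deposited raw counts, total and with at least 1 T-to-C conversion, for 91830 entries of 26995 gene symbols with no normalization. Of the columns in each file, 6 match no sample and were not used. Libraries were grouped by their titles.

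Counts were fitted with edgeR 4.0.16 (limma 3.58.1, R 4.3.3) over all 24 libraries in 8 groups, after filterByExpr (minimum count 10, minimum total 15). Both kinds of read were scaled by each library's size and TMM factor in total reads. Of several entries of a gene the most abundant on average stands for it, and p-values were adjusted over all 26338 and 10170 entries tested. Log2 fold changes are edgeR's fitted values. A prior count of 2 was added only to the normalized counts behind the class medians and the correlations between letters. A gene with no read in a group was bounded at 3 counts over that group. Ratios on 1 to 3 reads carry 95% intervals, and intervals and bounds cover counting error only, since no molecular identifiers are named in the sources used here. Entries of one gene can overlap, and a base difference from the reference counts as a conversion. Labelled values rest on 130767 to 190933 reads a library at day 3.

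The main fit did not pair the libraries, and letters A, B and C entered only as a block in an alternative. Deviations from the group means correlated at 0.205, 0.598 and 0.175 between same-letter libraries over 10829 genes. Deviations within a group depend on each other, so the values of A and C are no separate evidence of pairing. Only B stood clear of the others: DMSO C with ML-792 A reached 0.299 and DMSO A with ML-792 C 0.124. The test on simulated data (13263 genes in total, 6208 in labelled reads, 100 changed per size) gave 11 and 5 false calls.

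The genes named are the 12 highest and 12 lowest fold changes per table among called genes whose groups do not overlap and whose higher mean is at least 100 (total) or 20 (labelled) normalized counts, with Gm, Rik and LOC models left out, up to 4 called members per list or class by lowest adjusted p, and the genes the paper names for these assays. Further members of lists were named after their values were seen. Some genes that the rule names are not reported here. Members and all 35 lists were chosen with earlier results of these data known. Alternatives were DESeq2 1.42.0, no filter, one entry per gene, the letter as a block, adjusted p under 0.05, a fold change limit, the 6 day 3 libraries alone, labelled reads scaled by themselves, leaving out entries over 30% labelled, and leaving out each library or, chosen after seeing the data, both B libraries of day 3. Figures were drawn with Python 3.11.15 and matplotlib 3.10.9.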

Additional observations from a re-analysis of the deposited data

Results flagged for a closer look

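The effect of ML-792 at day 3 differed from its effect at another day, by edgeR's test of the difference of log2 fold changes, for the genes below, which are those among the strongest changed or named by the study that passed, and in labelled reads all that passed. Values are the effect at day 3 minus the other day's.

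In total reads against day 1, the difference was positive for Acot1 (4.60, adjusted p = 1.7e-05), Fmo1 (2.01, adjusted p = 0.0065) and Cxcl12 (0.85, adjusted p = 0.086). It was negative for Thrsp (-4.38, adjusted p = 0.0011), Retn (-3.20, adjusted p = 1.3e-04), Pip (-2.72, adjusted p = 2.8e-04), Ren1 (-2.65, adjusted p = 0.0084), Scd1 (-1.94, adjusted p = 5.2e-04), Adipoq (-1.34, adjusted p = 0.019), Top2a (-1.13, adjusted p = 0.037) and Rgs2 (-0.97, adjusted p = 0.02).

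Against day 7 it was positive for Acot1 (3.18, adjusted p = 0.0051), Fmo1 (2.92, adjusted p = 1.8e-04) and Scd1 (1.22, adjusted p = 0.032), and negative for Pip (-5.65, adjusted p = 6.4e-06), Ren1 (-3.42, adjusted p = 0.054), Retn (-2.55, adjusted p = 8.9e-04), Thrsp (-2.14, adjusted p = 0.087), Adipoq (-1.65, adjusted p = 0.0035), Cd44 (-1.47, adjusted p = 7.9e-05), Cxcl12 (-1.35, adjusted p = 0.0037) and Rgs2 (-1.30, adjusted p = 0.002).

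In labelled reads Fos was 1.22 higher at day 1 and 1.26 lower at day 3, a difference of -2.49 (adjusted p = 0.015). Slc6a6, the taurine carrier, was lower at day 1 by 2.14. At day 3 its counts were 90.8, 45.2 and 55.5 in DMSO against 60.9, 67.1 and 57.3 in ML-792, and the difference between the days was 2.09 (adjusted p = 0.084). Fn1 was 2.24 higher at day 3 and -0.68 at day 7, a difference of 2.92 (adjusted p = 0.008).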

How the results depend on the processing

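No called gene changed sign under any alternative run, but the balance of counts did turn, with 21 higher and 18 lower labelled genes without ML-792 replicate B. In total reads 72.5% to 75.8% of the 2051 calls remained when 1 library was left out and 59% without both B libraries, and in labelled reads 31.9% to 58.3% and 18.1% of 72. Lower genes in total reads numbered 1563 with the replicate letter as a block, 594 in the 6 day 3 libraries alone and 489 without both B libraries, and a log2 fold change above 1 left 700 higher and 410 lower. Differences from day 1 numbered 1413 with the block, and differences from day 7 numbered 1481 with the block, 897 by DESeq2 and 384 at an adjusted p under 0.05. Leaving out 1 library gave 862 to 947 higher and 671 to 767 lower genes, and 501 to 540 and 419 to 521 differences from days 1 and 7.

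In labelled reads higher and lower genes numbered 55 and 75 by DESeq2, 51 and 80 with the block, 52 and 60 scaled by labelled reads, 8 to 23 and 14 to 30 without 1 library, and 7 and 7 without both B libraries. Differences from day 1 numbered 34 by DESeq2, 5 with no filter on low counts, 4 with one entry per gene, 26 with the block, 1 at an adjusted p under 0.05, 6 scaled by labelled reads and 0 to 5 without 1 library. Differences from day 7 numbered 34, 5 with no filter, 26 with the block, 3 scaled by labelled reads and 0 to 3 without 1 library. Scaled by labelled reads, 26 PA, 4 CE and 12 MA genes were higher. The causes were not tested. With the letter as a block, 2050 of the 2051 total and all 72 labelled calls were called in the same direction, and Scd1, Fabp4, Klf3, Klf5, Cebpa and Atf4 were called in total reads with the block and not without it.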
